A study of Homo sapiens with 6 samples.

Results

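The kinesins are the motor proteins that walk along, or take apart, microtubules. The family was taken as every protein-coding gene of the deposited expression table whose GENCODE v44 symbol on GRCh37 is KIF followed by a number and an optional letter, or KIFC1 to KIFC3. This gave 42 of the 57773 genes listed, of which 14 were grouped as mitotic kinesins, 17 as transport kinesins and 11 as other kinesins by their known roles. All 6 libraries come from H460, an established line of human lung tumour cells of the non-small-cell type. The 3 control libraries received a non-targeting siRNA (siNT) and the 3 knockdown libraries received siHKlincR1_2, an siRNA against the lincRNA HKlincR1, which the labels call AC093323.3. Both carried the ON-TARGETplus modification and were given at 50 nM with Lipofectamine RNAiMAX, and polyA RNA was sequenced after 48 hours from what the labels call biological replicates. Only 1 siRNA against HKlincR1 was used in these libraries, so an effect of that oligonucleotide and an effect of losing HKlincR1 cannot be told apart.

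Most kinesins share a motor domain that binds microtubules and splits ATP, and differ in the parts that hold cargo or partner proteins. In dividing cells a subset builds the spindle, moves chromosomes and closes the cytokinetic bridge, and the transcripts of these motors peak in G2 and mitosis and fall when cells leave the cell cycle. The transport kinesins carry vesicles, organelles and RNA in interphase, and several of them are largely restricted to neurons.

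Values are RPKM, that is, reads scaled to the length of the gene model and to the library total, so levels can be compared between genes. The library totals worked back from the RPKM values lay between 24980280 and 30521000 reads. HKlincR1 itself had 3.62, 3.47 and 3.83 RPKM with siNT and 0.563, 0.628 and 0.390 RPKM with siHKlincR1, a reduction of 85.5%. The groups did not overlap, and the exact permutation test, two-sided, gave p = 0.10, below which this design cannot go. The third siHKlincR1 library held the least HKlincR1, from 27 reads against 37 and 42 in the first and second. The epithelial keratins KRT8, KRT18 and KRT19 were at 28.1 RPKM or more in every library and the mesenchymal filament gene VIM at 376 RPKM or more, while the epithelial adhesion gene EPCAM was near 0 (0.0159 to 0.110 RPKM), and the blood, T cell and alveolar markers PTPRC, CD3E and SFTPC were at most at 0.0691 RPKM. The fibroblast collagen gene COL1A1 was at 0.998 to 1.23 RPKM with siNT and 0.419 to 0.773 RPKM with siHKlincR1, and its part in the kinesin values was not tested.

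Mitotic kinesins were abundant in H460 cells. Of the 14 genes, 13 had a mean above 1 RPKM over the 6 libraries and 10 had a mean of at least 10 RPKM. The median over the mitotic genes was 17.1 RPKM, against 4.05 RPKM for the transport kinesins and 0.259 RPKM for the others. KIF11, the motor that pushes spindle poles apart, led the mitotic group with a mean of 26.9 RPKM. KIF20A and KIF23, both needed for cytokinesis, followed at 24.8 and 23.1 RPKM. The remaining genes ran from KIF14 (21.6 RPKM) down to KIF4B (2.58 RPKM). Between these lay KIF2C (19.8 RPKM), KIF18B (18.8 RPKM), KIF4A (17.4 RPKM), KIF20B (16.8 RPKM), KIF22 (14.6 RPKM), KIFC1 (12.5 RPKM), KIF18A (7.67 RPKM) and KIF15 (5.20 RPKM). The libraries of KIF11, KIF20A, KIF23 and KIF14 overlapped from each gene to the next. The testis-linked KIF2B had no read in any library, which at a floor of 3 reads leaves room for a low level.

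KIF5B and KIFC3, both transport kinesins, stood above all mitotic ones. KIF5B, a ubiquitous heavy chain of conventional kinesin, averaged 54.0 RPKM. KIFC3, a motor that walks towards microtubule minus ends, averaged 53.9 RPKM, and the libraries of the pair overlapped. KIF1C, which carries vesicles and RNA, averaged 28.9 RPKM, and KIF21A 14.0 RPKM. KIF3B followed at 11.8 RPKM, and KIF16B, KIF3A, KIF1B, KIF3C, KIF13A, KIFC2 and KIF13B ran from 5.27 down to 1.37 RPKM. The neuronal paralogues of these genes were close to absent. KIF5A and KIF5C, the neuronal heavy chains, averaged 0.0304 and 0.0477 RPKM, and KIF1A, a carrier of synaptic vesicle precursors, 0.0140 RPKM. KIF17, a motor of dendrites and cilia, averaged 0.117 RPKM. Among the other kinesins only KIF2A, a microtubule depolymerase of spindle poles and neurites, was abundant (20.7 RPKM). KIF26A, KIF24 and KIF9 averaged 2.00, 1.49 and 1.45 RPKM, and KIF27 0.913 RPKM. KIF12, KIF19, KIF25 and KIF6 had at most 3 reads in every library, and KIF26B had 5 to 21 reads.

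**Figure D1:**
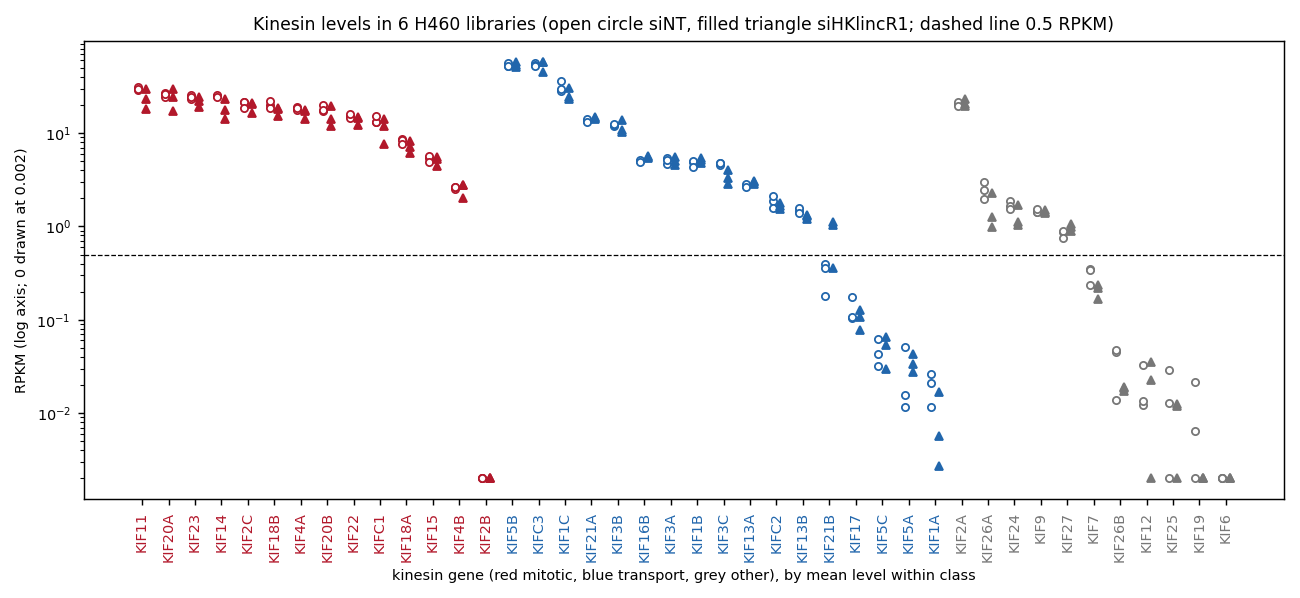
RPKM of the 42 kinesin genes in each library on a log axis, with open circles for siNT and filled triangles for siHKlincR1, sorted by mean level within the mitotic (red), transport (blue) and other (grey) groups. The median of the gene means was 17.1 RPKM for mitotic, 4.05 RPKM for transport and 0.259 RPKM for other kinesins, and the dashed line marks the mean of 0.5 RPKM needed for testing.

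A gene was tested when its mean was at least 0.5 RPKM. This kept 31 of the 42 kinesins, namely 13 mitotic, 13 transport and 5 other. KIF21B, at 0.577 RPKM, passed only because of the siHKlincR1 libraries, since its siNT mean was 0.313 RPKM. The 11 kinesins below the limit had means from 0 to 0.259 RPKM. The highest of them was KIF7, a Hedgehog pathway motor, with 0.238, 0.347 and 0.344 RPKM with siNT and 0.169, 0.235 and 0.220 RPKM with siHKlincR1, from 24 to 53 reads.

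The knockdown was compared with siNT in limma on log2(RPKM + 0.1) over all 15451 tested genes, and a gene was called at a Benjamini-Hochberg adjusted p under 0.05 with a fold above 1.5. limma called no kinesin, and 0.362% of all tested genes (0.356% lower and 0.00647% higher). At an unadjusted limma p under 0.05, KIF14, KIF3C and KIF26A were lower and KIF21B was higher, which is 3 and 1 of 31 kinesins, beside 9.19% and 7.04% of all tested genes (16.2% in either direction). With the replicate number as a block limma called no kinesin either, and 1.32% of all genes (0.809% lower and 0.511% higher). Voom on the reads worked back called no kinesin and 0.576% of all genes (0.563% lower and 0.0129% higher). Without the third siHKlincR1 library limma called 4 kinesins, which were KIF14, KIF3C and KIF26A as lower and KIF21B as higher, and 3.35% of all genes (2.03% lower and 1.32% higher). Voom with the replicate block, a fit added after seeing the data, called KIF26A as lower and KIF21B as higher, and 2.74% of all genes (1.71% lower and 1.04% higher). KIF21B entered these counts only through its siHKlincR1 libraries, so its place in them is not independent support for a rise.

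The tested mitotic kinesins shared a sign. All 13 tested members had a lower mean log2 level with siHKlincR1, with differences from -0.48 to -0.06 and a median of -0.19. Without the second siHKlincR1 library 9 were lower and 4 higher (KIF15, KIF20A, KIF2C and KIF4B), while leaving out any 1 of the other 5 libraries kept all 13 lower. Over all tested genes 49.8% were lower and the median was 0.0011. The mitotic list was written by hand with earlier results of these data known, so the shared sign is a description of that list. KIF2A, grouped with the other kinesins although it also acts at spindle poles, had 0.03 and would break the shared sign. With KIF2A and KIF24 added to the mitotic list the median stayed at -0.19. The 13 tested transport kinesins split into 7 lower and 6 higher, with a median of -0.02. Of the 5 other kinesins 3 were lower and 2 higher, with a median of -0.03. In these bulk libraries fewer cells that express a kinesin and fewer transcripts per cell cannot be told apart.

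The size of this difference depended on the library. Relative to each gene's siNT mean, the median mitotic kinesin was at -0.14 on the log2 scale in the first siHKlincR1 library, at -0.41 in the second and at 0.0016 in the third, while the siNT libraries lay between -0.04 and 0.05. All 13 mitotic kinesins were below their siNT mean in the second library, 10 in the first and 6 in the third. The third library was level with the controls, and whether this order goes with the level of HKlincR1 was not tested. Without the second siHKlincR1 library the median of the mitotic group was -0.09, and without the third it was -0.28. The transport kinesins had medians of -0.09, -0.0085 and 0.12 in the same libraries, with the first lowest and the third again highest. As differences within same-numbered pairs of libraries, their medians were -0.04, -0.09 and 0.13. Those pairs stood in the same order as the mitotic pair medians of -0.09, -0.44 and -0.0006.

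Taken within same-numbered pairs of libraries, 11, 13 and 7 of the 13 mitotic kinesins were lower with siHKlincR1 in pairs 1, 2 and 3, where 49.4%, 51.0% and 50.4% of all tested genes were lower. KIF11, KIF14, KIF18B, KIF22, KIF23, KIF4A and KIFC1 were lower in all 3 pairs. That is 7 of 13, beside 25.2% of all tested genes. No mitotic kinesin was higher in all 3 pairs.

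**Figure D2:**
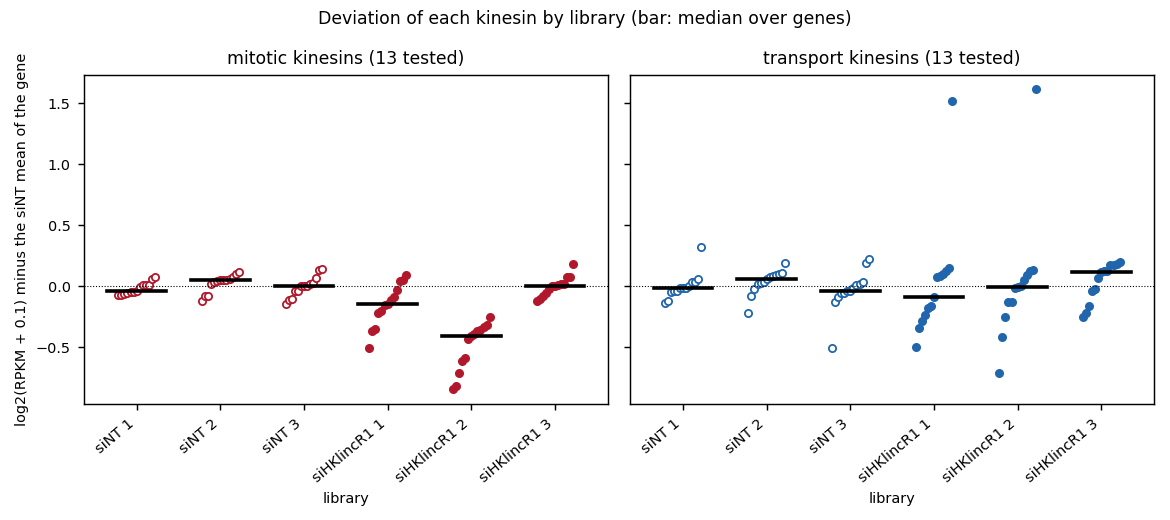
Each point is 1 tested kinesin in 1 library, plotted as log2(RPKM + 0.1) minus the gene's siNT mean, with a bar at the median over genes, for the 13 mitotic (left) and 13 transport kinesins (right). The mitotic medians were -0.14, -0.41 and 0.0016 in the 3 siHKlincR1 libraries, and the 2 highest points on the right are KIF21B.

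KIF14 (ENSG00000118193, chromosome 1, 200520625 to 200589879 on GRCh37), which works with PRC1 and citron kinase in cytokinesis, had the largest difference of the mitotic group. It was at 25.0, 25.5 and 24.3 RPKM with siNT and 17.5, 14.1 and 23.1 RPKM with siHKlincR1. The groups did not overlap, but the third siHKlincR1 library came close to the lowest siNT library. The log2 fold change was -0.48 (standard error 0.16, limma adjusted p = 0.256), and without the third siHKlincR1 library it was -0.66 (limma adjusted p = 0.0284). KIF14 and KIF4A were the 2 mitotic kinesins whose groups did not overlap, and 11.9% of all tested genes were likewise lower without overlap, so the count is near the background.

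KIF11 (ENSG00000138160, chromosome 10, 94333862 to 94415152 on GRCh37) is the target of drugs that leave cells with a monopolar spindle. It was at 28.9, 31.04 and 30.04 RPKM with siNT and 23.3, 18.3 and 30.03 RPKM with siHKlincR1. The first and second siHKlincR1 libraries lay below all controls and the third among them. This gave a log2 fold change of -0.36 (standard error 0.16, limma adjusted p = 0.332). KIFC1, which focuses spindle poles and clusters extra centrosomes, was at 13.3, 13.0 and 15.3 RPKM with siNT and 11.8, 7.68 and 14.0 RPKM with siHKlincR1. Its second siHKlincR1 library was far the lowest, and the log2 fold change was -0.35 (standard error 0.21, limma adjusted p = 0.425). An antisense pseudogene, RPL12P1, covers 14.0% of the KIFC1 exons, and whether strand was used in the counting is not given in the sources used here.

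KIF20A, a motor of the spindle midzone, was at 24.6, 26.8 and 26.3 RPKM with siNT and 24.3, 17.2 and 29.5 RPKM with siHKlincR1. The second siHKlincR1 library was the lowest of all 6 and the third the highest. Its log2 fold change was -0.17 (95% interval -0.59 to 0.26), and without the second siHKlincR1 library it was 0.05. KIF23, which forms centralspindlin with RACGAP1, was at 23.5, 25.6 and 24.5 RPKM with siNT and 22.03, 18.97 and 24.1 RPKM with siHKlincR1. Its log2 fold change was -0.18 (95% interval -0.41 to 0.05).

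KIF20B, which acts late in cytokinesis, had a log2 fold change of -0.30. KIF18A and KIF18B, which shorten microtubule tips and align chromosomes, had -0.21 and -0.22, with KIF18B lower in each pair, and the chromokinesins KIF4A and KIF22 had -0.19 and -0.15. KIF2C, a depolymerase that corrects wrong attachments at centromeres, had -0.09 (95% interval -0.36 to 0.19). KIF15, which can stand in for KIF11, had -0.07 (95% interval -0.32 to 0.18). KIF4B is a retrocopy of KIF4A, and their coding sequences are 95.7% identical. It was at 0.139 to 0.163 of the KIF4A level in every library, and reads of the pair may have been split between them, so its level is uncertain.

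**Figure D3:**
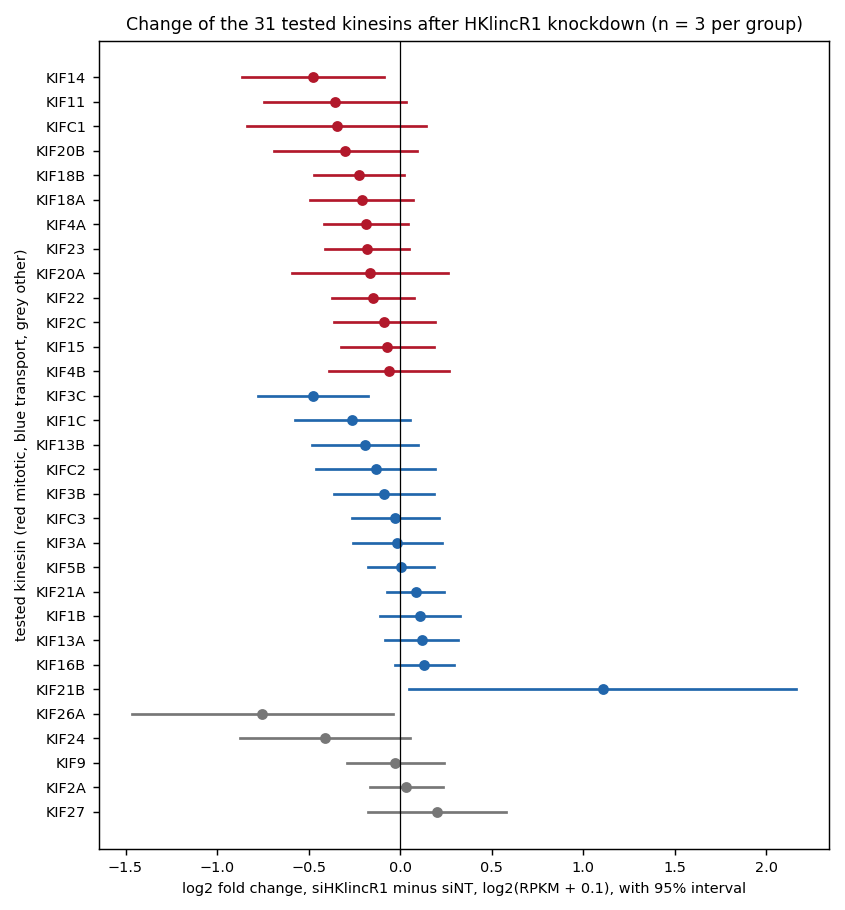
Log2 fold change of the 31 tested kinesins, siHKlincR1 minus siNT on log2(RPKM + 0.1), with the 95% interval from limma and 3 libraries per group. All 13 mitotic kinesins (red) lie left of 0, from -0.48 to -0.06, and the transport kinesins (blue) run from -0.48 for KIF3C to 1.11 for KIF21B.

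The promoters of the mitotic kinesins share short sequences that the choice of members did not use. The CHR element, with the letters TTTGAA on either strand, is known from promoters of genes that are switched on in G2 and mitosis, often together with a CCAAT box. RefSeq promoter windows of 300 bases, from 250 before to 50 after the gene start on GRCh38.p14, were found for 34 of the 42 kinesins. All 14 mitotic genes had a window. The transport genes KIF21B, KIFC3, KIF13B, KIFC2 and KIF5A had none, so the transport share covers only part of that list. The CHR letters were in 10 of 14 mitotic windows (71.4%), in 1 of 12 transport windows (8.33%) and in 0 of 8 other windows, against 12.1% of 15842 protein-coding windows. CCAAT was in 11 of 14 mitotic, 3 of 12 transport and 3 of 8 other windows, against 36.4% of all. Both were in 9 of 14 mitotic windows and in 5.02% of all. Where a CCAAT box adjoins the CHR letters they can share a T. A match is only a match of letters and was not tested as a binding site. The stretches around the letters are shown to let their flanks be compared, with the CHR letters in capitals, in the direction of the gene, on GRCh38.p14:

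KIF11 (chr10:92593090-92593119, plus strand): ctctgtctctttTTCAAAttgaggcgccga
KIF14 (chr1:200620733-200620762, minus strand): gcggggcgcccaTTCAAAttgcggccttct
KIFC1 (chr6:33391815-33391844, plus strand): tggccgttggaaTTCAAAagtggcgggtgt
KIF18A (chr11:28108149-28108178, minus strand): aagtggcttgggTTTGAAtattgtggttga
KIF18B (chr17:44947754-44947783, minus strand): ccgcccggctaaTTTGAAcgcaaggcgccg
KIF20B (chr10:89701602-89701631, plus strand): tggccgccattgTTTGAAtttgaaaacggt
KIF23 (chr15:69414282-69414311, plus strand): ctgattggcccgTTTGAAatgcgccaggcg
KIF15 (chr3:44761747-44761776, plus strand): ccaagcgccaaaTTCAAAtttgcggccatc
KIF4A (chrX:70290058-70290087, plus strand): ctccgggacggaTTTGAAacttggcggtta
KIF4B (chr5:155013746-155013775, plus strand): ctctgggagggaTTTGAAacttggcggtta

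In these windows the CHR letters began between 55 bases before and 30 bases after the gene start. KIF20B holds them a second time, directly after the first. The windows of KIF4A and its retrocopy KIF4B are nearly the same, and are not independent. Of the tested mitotic kinesins, KIF20A, KIF22 and KIF2C had no CHR letters in the window. Their log2 fold changes were -0.17, -0.15 and -0.09, inside the range of the other mitotic kinesins and above the group median of -0.19. A link between the letters and the change was not tested. The 1 transport window with the letters was that of KIF5B (chr10:32056548-32056577, minus strand), agtgcagtaaaaTTTGAAtctgcgaccccg, where they began 140 bases before the start.

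**Figure D4:**
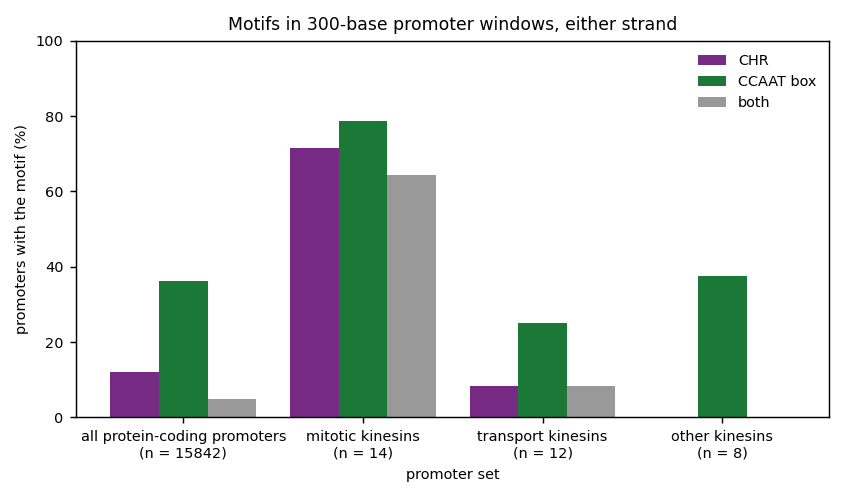
Share of 300-base RefSeq promoter windows that hold the CHR letters, CCAAT, or both, on either strand, for all protein-coding genes and for the mitotic, transport and other kinesins. The CHR bar is at 71.4% for mitotic kinesins and at 12.1% for all windows, and the kinesin bars rest on 14, 12 and 8 windows.

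KIF21B, a transport kinesin, had the largest positive log2 fold change of the family. The gene (ENSG00000116852, chromosome 1, 200938518 to 200992842 on GRCh37) encodes a motor of neurons and lymphocytes that also restrains microtubule growth. With siNT KIF21B had 135, 132 and 55 reads, or 0.400, 0.356 and 0.181 RPKM. With siHKlincR1 it had 362, 395 and 129 reads, or 1.05, 1.12 and 0.355 RPKM. The first and second siHKlincR1 libraries stood clear of all others, while the third lay just under the first and second siNT libraries, so the groups overlapped. Within same-numbered pairs the log2 difference was 1.20, 1.42 and 0.69. The fit gave 1.11 (standard error 0.45, 95% interval 0.05 to 2.16, limma adjusted p = 0.301). The adjusted p was 0.0837 with the replicate block and 0.0449 without the third siHKlincR1 library, where the log2 fold change was 1.57. Voom on the reads worked back gave a log2 fold change of 1.30 (adjusted p = 0.241), and with the replicate block 1.42 (adjusted p = 0.00133). The siNT mean of KIF21B was 0.313 RPKM, below the 0.5 RPKM limit, so only its siHKlincR1 libraries brought it into testing. That choice favours a rise, so these p-values are not independent support for one. Without the filter the limma adjusted p was 0.478. At this level the added 0.1 RPKM understates the change. It was 1.31 with a pseudocount of 0.01 and 0.46 with a pseudocount of 1.

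KIF21A, the paralogue whose coding sequence is 61.2% identical to that of KIF21B, stayed within a narrow range. It was at 13.4, 14.3 and 13.1 RPKM with siNT and 14.4, 14.0 and 14.8 RPKM with siHKlincR1, with a log2 fold change of 0.08 (95% interval -0.07 to 0.24).

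KIF3C (ENSG00000084731, chromosome 2, 26149467 to 26205618 on GRCh37) had the smallest unadjusted p of the family. It pairs with KIF3A in a heterodimeric motor that is best known from neurons. It was at 4.59, 4.79 and 4.76 RPKM with siNT and 3.31, 2.84 and 4.03 RPKM with siHKlincR1. All siHKlincR1 libraries lay below all siNT libraries. On the log2 scale the fold change was -0.48 (standard error 0.13, unadjusted p = 0.00731 and adjusted p = 0.188 in limma), and the differences within pairs were -0.46, -0.73 and -0.23. Its partner KIF3A, with a log2 fold change of -0.02 (95% interval -0.26 to 0.23), and KIF3B, with -0.09 (95% interval -0.36 to 0.18), had intervals that include 0.

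KIF1C was at 28.5, 29.5 and 36.4 RPKM with siNT and 24.6, 23.5 and 30.8 RPKM with siHKlincR1. The groups overlapped, but the siHKlincR1 library was the lower of each pair, with log2 differences of -0.21, -0.33 and -0.24. Over both groups the log2 fold change was -0.26 (standard error 0.13, limma adjusted p = 0.364, and 0.0627 with the replicate block).

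The most abundant transport kinesins were close to level. KIF5B was at 52.5, 57.0 and 52.3 RPKM with siNT and 50.6, 53.3 and 58.4 RPKM with siHKlincR1. Its log2 fold change was 0.0035, with a 95% interval of -0.18 to 0.18. KIFC3 was at 56.4, 53.4 and 52.9 RPKM with siNT and 57.3, 57.7 and 45.6 RPKM with siHKlincR1. Of its libraries, the third with siHKlincR1 was low, and the log2 fold change was -0.03 (95% interval -0.26 to 0.21). KIF16B and KIF13A, which carry endosomes, lay higher in every siHKlincR1 library than in any siNT library, with log2 fold changes of 0.13 and 0.12. KIF13B lay lower without overlap, at -0.19. KIF1B, which carries mitochondria and synaptic vesicle precursors, had 0.11 (95% interval -0.11 to 0.33) and KIFC2 -0.13 (95% interval -0.46 to 0.19). With KIF3C this makes 2 lower and 2 higher transport kinesins without overlap, of 13, beside 11.9% lower and 10.1% higher over all tested genes.

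Among the other kinesins, KIF26A had the largest negative log2 fold change of the family. KIF26A (ENSG00000066735, chromosome 14, 104602791 to 104647231 on GRCh37) is an atypical member that binds microtubules without motor activity. It was at 2.49, 1.97 and 3.02 RPKM with siNT and 1.25, 0.977 and 2.30 RPKM with siHKlincR1. Its first and second siHKlincR1 libraries were below all controls, while the third lay between the siNT libraries. The fitted log2 fold change was -0.75 (standard error 0.30, limma adjusted p = 0.299, and 0.0664 with the replicate block), and the pairs differed by -0.93, -0.94 and -0.38. It was called without the third siHKlincR1 library (limma adjusted p = 0.0355) and by voom with the replicate block (adjusted p = 0.0112).

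KIF24, which holds back cilia at the centriole, was at 1.88, 1.67 and 1.56 RPKM with siNT and 1.12, 1.03 and 1.69 RPKM with siHKlincR1. Only the third siHKlincR1 library reached the controls, and the log2 fold change was -0.41 (standard error 0.20, limma adjusted p = 0.342). KIF27, a relative of KIF7 tied to motile cilia, was at 0.876, 0.899 and 0.753 RPKM with siNT and 1.07, 0.976 and 0.897 RPKM with siHKlincR1. The groups just overlapped and the log2 fold change was 0.20 (95% interval -0.18 to 0.58). KIF2A was at 20.5, 21.5 and 19.4 RPKM with siNT and 19.4, 20.4 and 23.2 RPKM with siHKlincR1, with a log2 fold change of 0.03 (95% interval -0.17 to 0.23). KIF9, a motor of motile cilia, had a log2 fold change of -0.03 (95% interval -0.29 to 0.24). Exons of the antisense gene DIMT1 cover part of KIF2A, and the overlap with antisense exons is 18.7% of its exon length. That overlap is 17.8% for KIF9 and KIFC2, 10.7% for KIF27, 5.35% for KIF20A and 5.06% for KIF24, and 0 for KIF14, KIF11, KIF3C, KIF21B, KIF26A and KIF5B.

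**Figure D5:**
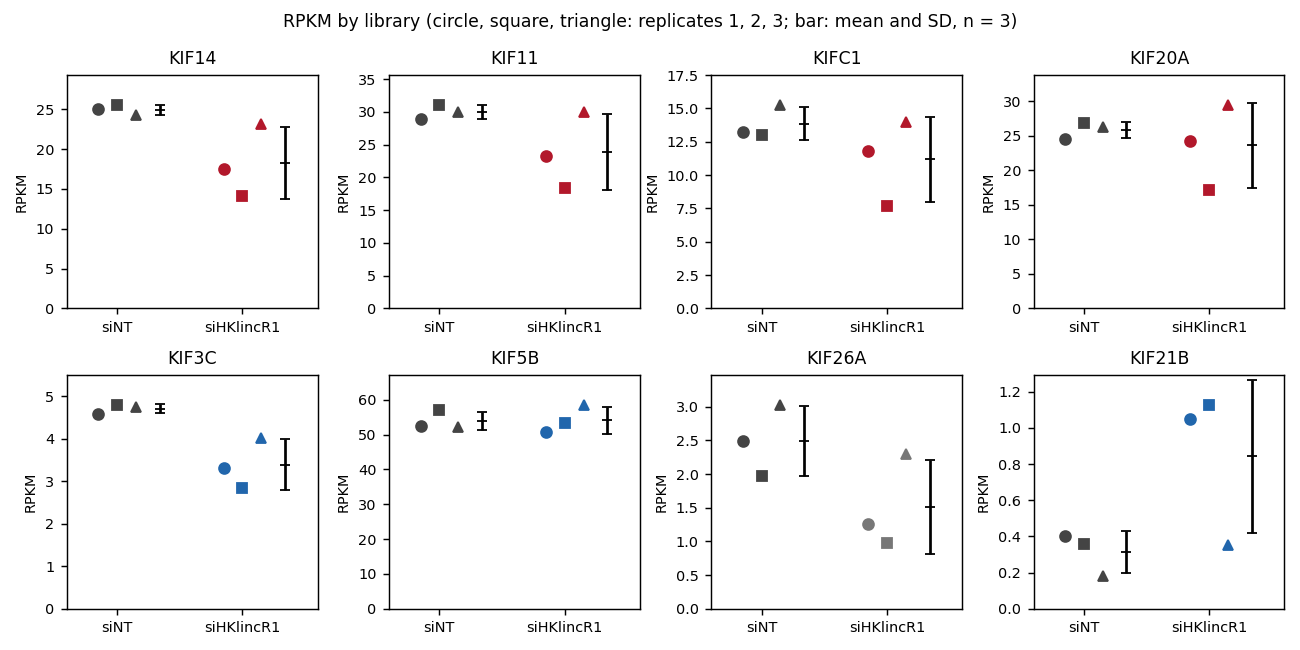
RPKM of 8 kinesins by library, with circles, squares and triangles for replicates 1, 2 and 3 and bars for the mean and SD of 3 libraries. For KIF14, KIF11, KIFC1, KIF20A, KIF3C, KIF5B and KIF26A the third siHKlincR1 library is the highest of its group, and for KIF21B it is the lowest, at 0.355 RPKM.

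The siRNA itself was compared with the kinesin transcripts, since an siRNA can lower transcripts whose 3′ UTR pairs with the seed, positions 2 to 8 of its guide strand. The sequence that the labels give was read as the sense strand, and the guide as its reverse complement. The paper gives the sequence without naming its strand. The strands are shown with the seed, or its match in the sense strand, in capitals:

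siHKlincR1_2 sense strand: gaaguauacucGUGUGCUu
siHKlincR1_2 guide strand: aAGCACACgaguauacuuc

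The seed pairs with GTGTGCT. This site was in the 3′ UTR of 3 of the 31 tested kinesins, or 9.68%, against 14.0% of 10763 tested protein-coding genes whose 3′ UTR was known. None of the 13 mitotic kinesins held it. The 3 kinesins with 1 site each were the transport genes KIF1C, KIF13B and KIF21A, with log2 fold changes of -0.26, -0.19 and 0.08. Their 3′ UTRs were 4250, 3226 and 1196 nt long, and those of the 13 tested mitotic kinesins 74 to 1888 nt. The shares with a site were not adjusted for this length. KIF21B, KIF3C, KIF14 and KIF26A held none. Over all of these genes the median log2 fold change was -0.08 with the site and -0.0058 without it. The sites of KIF1C and KIF21A are shown on GRCh37, in capitals:

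KIF1C (chr17:4928087-4928107, plus strand): attgtatGTGTGCTctgtgca
KIF21A (chr12:39688039-39688059, minus strand): ctatcctGTGTGCTtagtttt

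Partners of the kinesins were taken as lists. Of 12 spindle partners, such as the KIF4A and KIF14 partner PRC1, the KIF23 partner RACGAP1 and the Aurora kinases, 9 were lower and 3 higher, with a median log2 fold change of -0.20, and neither limma nor voom called any. At an unadjusted limma p under 0.05 there were 2 lower of 12, beside 9.19% of all tested genes. Their medians by siHKlincR1 library were -0.18, -0.47 and 0.07, the same order of libraries as in the mitotic kinesins. PRC1 was at 40.1, 39.99 and 40.5 RPKM with siNT and 32.7, 29.2 and 37.5 RPKM with siHKlincR1, the 1 partner of 12 that was lower without overlap, near the 11.9% of all tested genes. NUMA1, which holds spindle poles together, lay higher without overlap, at 9.64 to 9.88 RPKM with siNT and 10.2 to 10.3 RPKM with siHKlincR1, beside 10.1% of all tested genes. CENPE, a kinesin of the kinetochore whose symbol falls outside the rule, had a log2 fold change of 0.01. Of 13 tested cargo adaptors and light chains, 4 were lower and 9 higher, with a median of 0.04, and neither limma nor voom called any. At an unadjusted limma p under 0.05 there were 2 higher of 13, beside 7.04% of all tested genes. Without overlap 1 adaptor was lower and 4 were higher, beside 11.9% and 10.1% of all tested genes. Of 9 tested subunits of cytoplasmic dynein, the minus-end motor, 5 were lower and 4 higher, with a median of -0.13. Without overlap 3 of these were lower and 1 higher, beside 11.9% and 10.1% of all tested genes. At an unadjusted limma p under 0.05 there were 2 lower of 9, beside 9.19% of all tested genes. The light chain DYNLT3 was the 1 subunit of 9 called lower, beside 0.356% of all tested genes. It was at 9.10, 9.91 and 8.15 RPKM with siNT and 6.04, 5.39 and 5.74 RPKM with siHKlincR1. Its log2 fold change was -0.65 (limma, Benjamini-Hochberg adjusted p = 0.0479).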

How the data were processed

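The authors counted reads of strand-specific polyA libraries on Ensembl v74 gene models with Rsubread (featureCounts, hg19/GRCh37) and deposited RPKM values per gene. CASAVA 1.8.2 is named in the submitters' processing notes, and the aligner is not given in the sources used here. Because the RPKM values are unrounded, library totals and reads were worked back, and all values of the 31287 genes above 0 came out whole (tolerance 1e-06 reads). Testing was limited to the 15451 genes that averaged 0.5 RPKM or more, and used limma (version 3.58.1, R 4.3.3) on log2 values after adding 0.1 RPKM, with a mean-variance trend and Benjamini-Hochberg adjustment. The p-values rest on 3 biological replicates per group.

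Same-numbered libraries deviated together from their group means over these genes, with correlations of 0.142, 0.137 and 0.266. Among libraries of unlike number, siNT 1 with siHKlincR1 2 reached 0.113, and the rest lay between -0.209 and -0.00978. The replicate numbers were used to describe pairs and as the block of an alternative fit. The main fit ignored them, and it gave the standard errors, intervals and adjusted p-values wherever no block is named. Both fits were also run on simulated reads with the same dispersion for every gene and no replicate effect. That run does not cover the differences between libraries seen here. Symbols come from GENCODE v44 on GRCh37, matching 55538 identifiers. The mitotic, transport, other and partner lists were written by hand, and members and lists were chosen with earlier results of these data known. Values by library are given for KIF21B, for called kinesins, and for the 3 kinesins with the largest change and the 3 with the highest level in each group. Library values of KIF7, KIF21A and PRC1, and mention of CENPE and NUMA1, were added after their values were seen. PECAM1, an endothelial marker, was not matched. 3′ UTRs are those of canonical transcripts and of at least 30 nt. Whether strand was used in the counting is not given in the sources used here. Alternatives changed the pseudocount, filter, scaling, trend, block, test, libraries and the mitotic list.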

Additional observations from a re-analysis of the deposited data

How the results depend on the processing

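Voom with the replicate block was chosen after seeing the data. Over the whole table limma called 56 genes, 17 without the trend, 204 with the replicate block and between 7 and 518 when 1 library was left out. The highest count came without the third siHKlincR1 library, and the other libraries gave 7 to 18. Voom called 89 genes, and 424 with the replicate block. The count of kinesins called was 0 except in voom with the replicate block, which called 2, and when 1 library was left out, which gave between 0 and 4, the 4 without the third siHKlincR1 library. The 2 and the 4 include KIF21B, which entered testing only through its siHKlincR1 libraries. The replicate block in limma changed no call of a kinesin.

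The median log2 fold change of the mitotic kinesins was negative in every alternative, between -0.28 and -0.09, and that of the transport kinesins lay between -0.05 and 0.05. The reduction of HKlincR1 lay between 83.6% and 86.9% when 1 library was left out. Leaving out 1 library turned the sign of 9 of the 31 tested kinesins, which were KIF15, KIF20A, KIF2C and KIF4B without the second siHKlincR1 library and KIF2A, KIF3A, KIF5B, KIF9 and KIFC3 without others. Among those given by library, the log2 fold change then lay between -0.341 and 0.0474 for KIF20A, between -0.0392 and 0.0889 for KIF2A, between -0.0524 and 0.0502 for KIF5B and between -0.0846 and 0.0845 for KIFC3, and the cause was not tested. Kinesins with at most 3 reads in every library are below what this depth can compare.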
